A study of Mus musculus with 12 samples.

Results

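The genes Bsnd, Kcnj1, Kcnj10 and Kcnj16 encode chloride and potassium channel proteins of the distal nephron. They were chosen by name, as a group of related channel genes, and are 4 of the 46882 gene names in a table of read counts from mouse kidney. All 4 were abundant enough to be among the 16910 genes tested. The libraries came from the whole kidney of C57BL/6 mice at 6 to 8 weeks of age, 6 of them wild type (WT) and 6 A1cf -/- (A1cf KO), and a library is called by the number of its animal. Numbers 573, 590, 601, 776, 777 and 778 were WT, and 574, 584, 588, 591, 602 and 780 A1cf KO. The series describes them as biological replicates. The sources used here do not give the sex of the animals or how the A1cf allele was made. A1cf encodes an RNA-binding protein first known as the partner of the APOBEC cytidine deaminase in the editing of apolipoprotein B RNA.

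In the thick ascending limb of the nephron, the cotransporter encoded by Slc12a1 brings sodium, potassium and chloride into the cell from the urine side. Potassium then returns to the urine through the channel encoded by Kcnj1 (ROMK), and chloride leaves on the blood side through chloride channels that need the subunit barttin, encoded by Bsnd. On the blood side of the distal convoluted tubule, where the cotransporter encoded by Slc12a3 takes up sodium chloride, the products of Kcnj10 and Kcnj16 join into a potassium channel that sets the membrane voltage. In humans, inherited loss of BSND or KCNJ1 causes forms of Bartter syndrome, a salt-losing disorder, and loss of KCNJ10 or KCNJ16 causes salt-losing tubulopathies that come with disease of the nervous system or ear.

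In the mm10 coordinates of the deposited table, Bsnd lies on chromosome 4 (chr4:106483456-106492283, minus strand) with 4 separate stretches of counted exon that sum to 2756 bases. Kcnj1 lies at chr9:32372418-32399192 on the plus strand, with 3 stretches and 3266 bases. Kcnj10 lies at chr1:172341210-172374085 on the plus strand, with 2 stretches and 5407 bases. Kcnj16 lies at chr11:110968033-111027968 on the plus strand, with 5 stretches and 3936 bases. None of the 4 shares an exon base with another gene in the table, so the lack of a stated strand setting in the counting does not mix their reads with those of a listed neighbour.

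The 250 bases before the annotated start are shown for the 3 potassium channel genes, because Kcnj1 and Kcnj10 varied together across libraries, no relation of Kcnj16 with either passed the threshold (values below), and their start regions differ in base composition. The sequences are from RefSeq on the GRCm38.p6 build, the assembly that mm10 names, plus strand, 5′ to 3′. The sequence table matched 3 of the 4 genes, the unmatched one being Bsnd. Capitals mark matches, on either strand, to 2 short motifs of transcription factor families of the distal nephron: AAGGTCA (an ESRR site) and GCCNNNGGC (an AP-2 site). The motifs were picked after the sequences had been seen.
Kcnj1, chr9:32393735-32393984: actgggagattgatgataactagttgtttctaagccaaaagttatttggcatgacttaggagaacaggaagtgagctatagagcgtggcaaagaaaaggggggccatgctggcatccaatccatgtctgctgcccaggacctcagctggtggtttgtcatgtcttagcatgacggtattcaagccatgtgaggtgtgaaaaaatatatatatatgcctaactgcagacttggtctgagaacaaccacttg
Kcnj10, chr1:172340960-172341209: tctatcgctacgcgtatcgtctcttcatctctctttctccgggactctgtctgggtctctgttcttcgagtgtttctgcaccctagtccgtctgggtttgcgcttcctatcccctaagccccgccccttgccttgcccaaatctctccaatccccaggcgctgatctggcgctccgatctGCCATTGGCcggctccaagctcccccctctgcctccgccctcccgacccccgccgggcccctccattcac
Kcnj16, first of 4 annotated starts, chr11:110967783-110968032: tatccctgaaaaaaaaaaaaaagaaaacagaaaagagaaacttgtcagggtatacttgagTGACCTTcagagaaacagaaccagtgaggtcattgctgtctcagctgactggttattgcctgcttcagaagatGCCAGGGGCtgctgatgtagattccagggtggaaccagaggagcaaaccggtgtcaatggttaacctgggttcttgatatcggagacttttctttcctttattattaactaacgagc

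The Kcnj10 and Kcnj16 windows end at the base before the first counted exon, whereas the Kcnj1 window lies inside the counted span of the gene. The Kcnj10 window held 62.0% G or C and 17 CpG dinucleotides, and its GC content was at percentile 76.7 of 32851 RefSeq windows of the same length (median 52.4%). The windows of Kcnj1 (44.8% GC, 2 CpG) and of the first Kcnj16 start (42.8% GC, 3 CpG) were at percentiles 23.2 and 17.9. By GC content Kcnj1 was thus nearer to Kcnj16 than to Kcnj10, the gene it varied with across libraries. A link between base composition and levels was not tested. The first Kcnj16 window held 1 match to each of the 2 motifs, the Kcnj10 window held 1 AP-2 match, and the Kcnj1 window held none. Among all 32851 windows, 4.08% held AAGGTCA and 13.7% held GCCNNNGGC. The windows of the other 3 annotated Kcnj16 starts held no match.

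Total counts per library ran from 26671705 (WT 776) to 52899139 (A1cf KO 574). The A1cf gene itself had 54.5 ± 7.39 CPM (read counts scaled to a common library total, with TMM factors) in WT against 4.11 ± 1.07 CPM in the knockouts (SD, n = 6 each), a log2 fold change of -3.72 ± 0.153 (SE, edgeR adjusted p = 6.02e-09), and its groups did not overlap. At these depths the 4 channel genes had from 971 reads (Bsnd in A1cf KO 780) to 34517 reads (Kcnj16 in WT 573) in a library. Animal numbers fall into 573 to 602 and 776 to 780. The sources used here do not say what this split stands for. It is unbalanced between genotypes, with 3 WT and 5 A1cf KO animals in the first range and 3 WT and 1 A1cf KO animal in the second.

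To compare levels between genes, CPM were divided by the counted exon length in kilobases. Kcnj16 was the most abundant of the 4 at 171 ± 11.01 CPM per kilobase in WT (SD, n = 6), followed by Kcnj1 at 68.5 ± 5.71, Bsnd at 21.2 ± 3.40 and Kcnj10 at 13.9 ± 1.20. The order of the means was the same in A1cf KO, at 159 ± 11.6, 59.9 ± 5.12, 16.02 ± 2.26 and 11.8 ± 1.298 CPM per kilobase. Neighbours in this order did not overlap between libraries, except for Bsnd and Kcnj10 in A1cf KO, where Bsnd was the higher of the pair in 5 of 6 libraries and the ranges overlapped. Within a library, Kcnj16 exceeded Kcnj10, the subunit it joins, by a geometric mean of 12.4-fold in WT and 13.6-fold in A1cf KO.

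Bsnd, the barttin subunit, had the largest relative difference between genotypes of the 4 genes. In WT it ranged from 46.8 (WT 776) over a median of 58.2 to 71.2 CPM (WT 777), and in A1cf KO from 32.9 (A1cf KO 780) over a median of 45.1 to 51.7 CPM (A1cf KO 602). Of the A1cf KO libraries, 5 of 6 lay below the lowest WT library, and A1cf KO 602 lay inside the WT range, so the groups overlapped. The means were 58.4 ± 9.37 and 44.2 ± 6.22 CPM (SD, n = 6 each), 24.4% lower in A1cf KO. The log2 fold change was -0.40 ± 0.113 (SE), with an unadjusted p of 0.00284 and an adjusted p of 0.263 in edgeR's quasi-likelihood test with Benjamini-Hochberg adjustment over all 16910 genes. The difference did not pass the threshold of 0.05.

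Kcnj1, the channel that returns potassium to the urine, ranged in WT from 209 (WT 601) over a median of 217 to 259 CPM (WT 776). In A1cf KO it ranged from 181 (A1cf KO 574) over a median of 189 to 226 CPM (A1cf KO 602). Here too 5 of 6 A1cf KO libraries lay below the lowest WT library, while A1cf KO 602 was above 4 of the 6 WT libraries. The means were 224 ± 18.6 and 196 ± 16.7 CPM (SD, n = 6 each), 12.5% lower in A1cf KO. The log2 fold change was -0.19 ± 0.0689 (SE, edgeR unadjusted p = 0.0137, adjusted p = 0.366). Among animals 573 to 602 alone it was -0.12 (adjusted p = 0.768), less by more than 1.5 times.

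Kcnj10, the pore-forming subunit of the basolateral potassium channel, ranged in WT from 67.9 (WT 573) over a median of 73.9 to 86.4 CPM (WT 776). In A1cf KO it ranged from 55.9 (A1cf KO 584) over a median of 64.4 to 75.3 CPM (A1cf KO 602). As for Bsnd and Kcnj1, A1cf KO 602 was the A1cf KO library inside the WT range. The means were 74.9 ± 6.49 and 63.6 ± 7.02 CPM (SD, n = 6 each), 15.1% lower in A1cf KO, with a log2 fold change of -0.24 ± 0.0767 (SE, edgeR unadjusted p = 0.00786, adjusted p = 0.323).

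Its partner subunit Kcnj16 was the most similar between genotypes. It ranged in WT from 610 (WT 590) over a median of 673 to 746 CPM (WT 776), and in A1cf KO from 567 (A1cf KO 591) over a median of 631 to 688 CPM (A1cf KO 780). The ranges overlapped widely, and only 2 of 6 A1cf KO libraries, 591 and 602, lay below the lowest WT library. The means were 675 ± 43.4 and 627 ± 45.6 CPM (SD, n = 6 each), with a log2 fold change of -0.10 ± 0.0645 (SE, edgeR unadjusted p = 0.125, adjusted p = 0.597). With the range of animal numbers as a covariate the fold change was -0.067, less by more than 1.5 times.

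**Figure D1:**
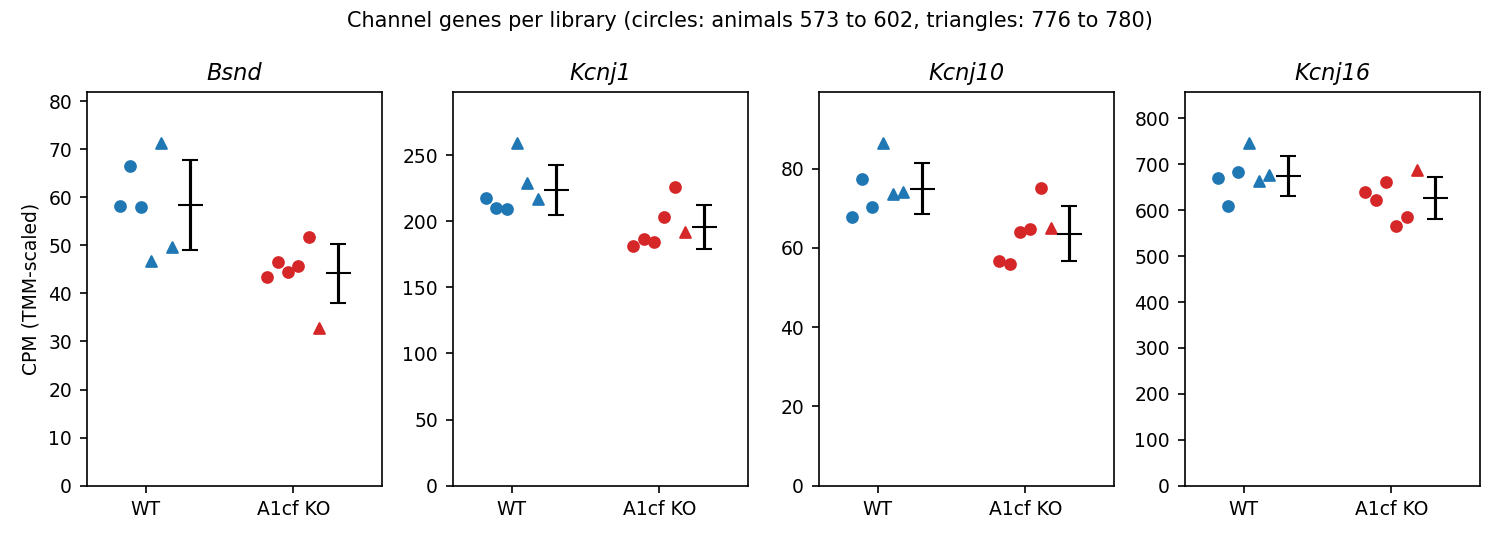
CPM of Bsnd, Kcnj1, Kcnj10 and Kcnj16 (vertical axes from 0, 1 panel per gene) in each WT (blue) and A1cf KO (red) library, with black bars for the mean and SD over 6 libraries. For Bsnd, Kcnj1 and Kcnj10, 5 of 6 A1cf KO points sit below the lowest WT point, and for Kcnj16 2 of 6 do.

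Of the 4 genes, 0 passed the adjusted threshold in edgeR, and 0 did so by DESeq2 or limma-voom. Over all genes tested, 8 passed in edgeR, or 0.0473% (0.0355% with lower expression in A1cf KO), and 1.01% passed by DESeq2. All 4 fold changes were negative, where 50.8% of all genes had a negative fold change. An unadjusted p under 0.05 with lower expression in A1cf KO was found for 3 of the 4, Bsnd, Kcnj1 and Kcnj10, against 5.28% of all genes tested (10.4% in either direction). Groups that did not overlap were found for 0 of the 4, against 0.84% of all genes in either direction and 0.52% with lower expression in A1cf KO. The median log2 fold change of the 4 was -0.215, and that of all tested genes was -0.003.

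The direction for each of the 4 genes was the same under all 22 other settings tried, and none passed the threshold under any of them. With the range of animal numbers as a covariate 0.142% of all genes passed, and among animals 573 to 602 alone 0.0402%. For Bsnd the log2 fold change ran from -0.49 to -0.33 over those settings and the adjusted p from 0.0622 (DESeq2) to 0.439. Among animals 573 to 602, all 5 A1cf KO libraries lay below all 3 WT libraries for Bsnd (43.5 to 51.7 against 58.0 to 66.5 CPM), with an edgeR fold change of -0.39 and an adjusted p of 0.226. In the same animals 4 of 5 did so for Kcnj1 and Kcnj10, and 2 of 5 for Kcnj16. Of animals 776 to 780, the 1 A1cf KO library was below all 3 WT libraries for Bsnd, Kcnj1 and Kcnj10 and not for Kcnj16, and with 1 library there is no test within that range.

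**Figure D2:**
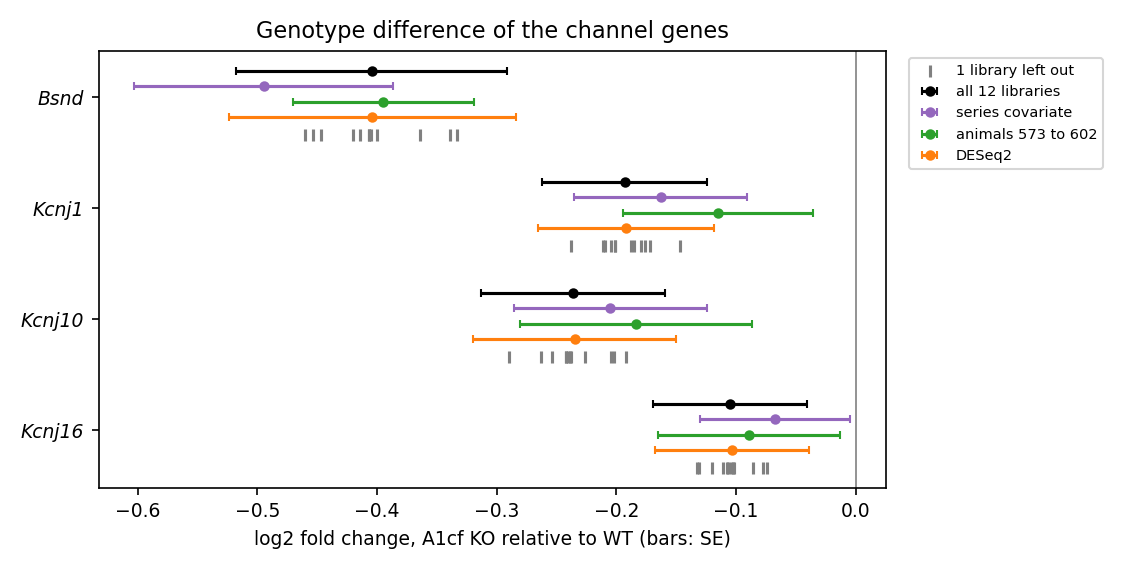
Log2 fold change of each gene, A1cf KO relative to WT, with bars for the SE, from all 12 libraries, with the range of animal numbers as a covariate, from animals 573 to 602 and from DESeq2. Grey ticks are edgeR fits with 1 library left out, and every value lies below 0, with Bsnd farthest from 0 and Kcnj16 nearest.

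A whole kidney mixes many cell types, and in such samples fewer cells of a type and less RNA per cell cannot be told apart. The marker lists of the segments that carry these channels had negative fold changes as well. All 10 thick ascending limb markers had negative fold changes (median -0.41), 9 with an unadjusted p under 0.05 and 0 past the adjusted threshold in edgeR. Their summed level was 4843 to 7151 CPM in WT and 3654 to 4663 CPM in A1cf KO, without overlap. A sum weighs abundant genes most, and its mean in WT was 5760 CPM, with Umod the largest part. Umod, the uromodulin gene of that segment, had 3084 ± 326 CPM in WT against 2218 ± 213 CPM in the knockouts (SD, n = 6 each), a log2 fold change of -0.48 with an adjusted p of 0.106 in edgeR and 5.61e-05 in DESeq2. Slc12a1 had 1012 ± 269 and 813 ± 86.8 CPM, with a log2 fold change of -0.32 (edgeR adjusted p = 0.468) that was -0.18 without WT 777 and -0.12 among animals 573 to 602. Its groups overlapped (743 to 1466 CPM in WT, 708 to 944 CPM in A1cf KO). Those of Umod did not (2720.5 to 3656 CPM in WT, 1876 to 2459 CPM in A1cf KO), a pattern found for 0.52% of all genes tested.

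The 8 distal convoluted tubule markers were also all negative (median -0.22, 4 with an unadjusted p under 0.05, 0 past the threshold in edgeR), with summed levels of 1543 to 2241 CPM in WT and 1456 to 1846 CPM in A1cf KO. Slc12a3 had 971 ± 125 and 836 ± 91.1 CPM (SD, n = 6 each), with a log2 fold change of -0.22. Another marker of that list, Tmem52b, had 253 ± 42.2 and 217 ± 19.3 CPM. The 9 tested principal cell markers (median -0.26) and the 11 intercalated cell markers (median -0.24) were negative throughout, with 2 and 6 at an unadjusted p under 0.05 and 0 past the threshold. Their sums were 647 to 915 against 598 to 759 CPM and 584 to 871 against 577 to 640 CPM. In those lists the water channel gene Aqp2 had a log2 fold change of -0.44, Hsd11b2, whose enzyme inactivates glucocorticoids, -0.12, the ammonia channel gene Rhcg -0.26 and the anion exchanger gene Slc4a9 -0.18. The part of these segments' RNA in the differences of the channel genes was not tested beyond the ratios below.

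Marker lists of cell types outside the distal nephron had medians above 0, except for the glial list. The 12 proximal tubule markers, 7 positive and 5 negative, had a median of 0.06 and ran from -0.38 to 0.23. Their sums were 36364 to 52842 CPM in WT and 38448 to 55503 CPM in A1cf KO. Of these markers, Kap had a log2 fold change of 0.19 and the phosphate transporter gene Slc34a1 one of 0.18. Podocyte markers (7, 5 positive, median 0.08, sums of 202 to 354 against 255 to 334 CPM) included Podxl at 0.01. Endothelial markers (8, 5 positive and 3 negative, median 0.05, sums of 195 to 413 against 246 to 402 CPM) included Emcn at -0.12 and Plvap at -0.06. Macrophage markers (8, 7 positive, median 0.24, sums of 215 to 267 against 245 to 279 CPM) included Cd74 at 0.17 and C1qb at 0.17. No member of these lists passed the threshold in edgeR, and 1 proximal tubule and 3 macrophage markers were higher and 1 proximal tubule marker lower at an unadjusted p under 0.05.

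Kcnj10 is also a glial gene, so glial and nerve markers were read beside it. Of 8 such markers 4 were tested, with a summed level of 23.6 to 28.4 CPM in WT and 22.1 to 26.01 CPM in A1cf KO. All 4 fold changes were negative (median -0.22, 2 with an unadjusted p under 0.05, 0 past the threshold in edgeR), with Fabp7 at -0.37 and Mbp at -0.07. The defining markers S100b, Sox10 and Cdh19 were too low to test, with at most 16, 10 and 24 reads in any library.

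The ratio of 2 genes within a library does not depend on the scaling between libraries. For 6 ratios per kilobase, A1cf KO and WT were compared by an exact two-sided permutation test over the 924 ways to divide 12 libraries evenly, which cannot give a p below 0.00216. None of the 6 differed beyond the spread between libraries after Benjamini-Hochberg adjustment over the 6 ratios. The adjustment was chosen after the unadjusted values had been seen, and both are given. Relative to Slc12a1, Bsnd differed by -0.12 on the log2 scale (exact permutation p = 0.532, adjusted p = 0.68), and Kcnj1 by 0.09 (p = 0.567, adjusted p = 0.68, exact permutation). Relative to Slc12a3, Kcnj10 differed by -0.03 (p = 0.797, adjusted p = 0.797, exact permutation) and Kcnj16 by 0.11 (p = 0.431, adjusted p = 0.68, exact permutation). With 1 library left out, 3 of these changed sign: Bsnd to Slc12a1 was 0.0026 without WT 590, Kcnj1 to Slc12a1 was -0.018 without WT 777, and Kcnj10 to Slc12a3 was 0.042 without WT 777 and 0.013 without A1cf KO 584. Bsnd to Slc12a1 was also nearer 0 without WT 601 (-0.044) or A1cf KO 780 (-0.037), and it was -0.30 among animals 573 to 602 (exact permutation p = 0.196, adjusted p = 0.464). Kcnj16 to Slc12a3 was 0.026 without A1cf KO 780, 0.051 without WT 590, 0.18 without WT 777 and 0.16 without A1cf KO 602.

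Kcnj16 relative to Kcnj10 differed by 0.13 on the log2 scale (exact permutation p = 0.208, adjusted p = 0.624). Without A1cf KO 602 it was 0.20 (exact permutation p = 0.0346, adjusted p = 0.208). Bsnd relative to Kcnj1 differed by -0.21 (exact permutation p = 0.195, adjusted p = 0.624), with all 6 A1cf KO libraries below the WT mean. Without WT 776 the latter was -0.31 (exact permutation p = 0.0195, adjusted p = 0.117), and without A1cf KO 780 it was -0.13. Among animals 573 to 602 it was -0.27, with an exact permutation p of 0.0179, the smallest that 3 against 5 libraries allow, and an adjusted p of 0.107.

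Kcnj16 can also join Kcnj15, a related potassium channel subunit that is best known from the proximal tubule. Ratios among these subunits, per kilobase, are given as a description with no test, because they were chosen after the values had been seen. Kcnj15 exceeded Kcnj10 by 14.6-fold to 16.4-fold in WT libraries and by 18.2-fold to 27.9-fold in A1cf KO libraries, without overlap (means 15.9 ± 0.662 and 22.2 ± 3.81, SD, n = 6 each). How often ratios of other gene pairs do not overlap was not surveyed. This ratio sets a gene best known from the proximal tubule (marker median 0.06) against one of the distal convoluted tubule (marker median -0.22). The part of segment RNA in it was not tested. Kcnj15 itself had 1475 ± 74.8 CPM in WT against 1740 ± 277 CPM in the knockouts, a log2 fold change of 0.24 that did not pass the threshold (edgeR adjusted p = 0.395) and that was 0.15 without A1cf KO 780. Kcnj16 relative to the sum of Kcnj10 and Kcnj15 was 0.643 to 0.785 in WT and 0.504 to 0.670 in A1cf KO, so the ranges overlapped.

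**Figure D3:**
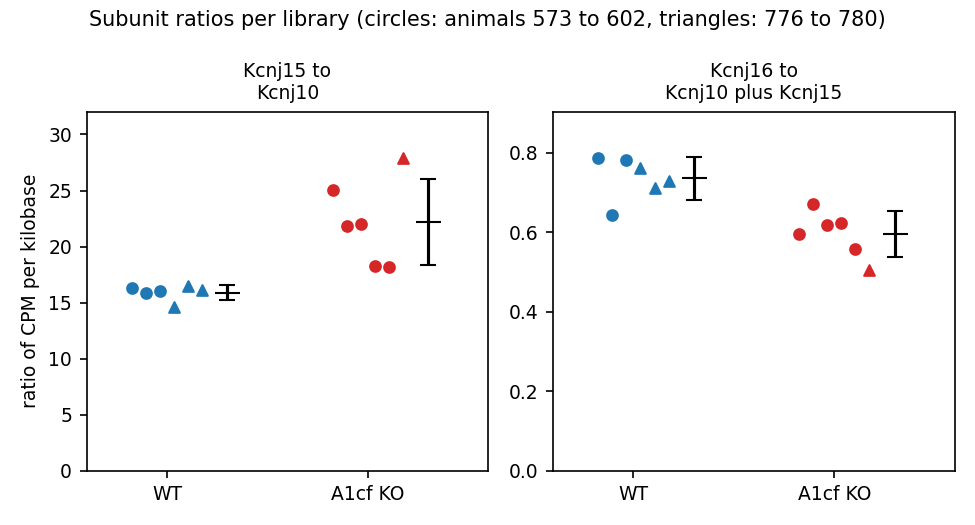
Ratios of CPM per kilobase between channel subunits (vertical axes from 0) in each WT (blue) and A1cf KO (red) library, with black bars for the mean and SD over 6 libraries. The Kcnj15 to Kcnj10 ratio is 14.6 to 16.4 in WT and 18.2 to 27.9 in A1cf KO, and the ratio of Kcnj16 to the sum of both overlaps between genotypes.

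Across the 12 libraries, Kcnj1 and Kcnj10 varied together. Pearson's r of log2 CPM was 0.905 (permutation p = 6e-05, adjusted p = 0.00036 over the 6 pairs of the 4 genes) and Spearman's rho was 0.846 (permutation p = 0.00102, adjusted p = 0.00612). Within genotypes r was 0.769 in the 6 WT libraries (exact permutation p = 0.0986, adjusted p = 0.256) and 0.873 in the 6 knockout libraries (exact permutation p = 0.0222, adjusted p = 0.133). The rho was lower in WT, at 0.314 (exact permutation p = 0.564, adjusted p = 0.803), and was 0.771 in the knockouts (exact permutation p = 0.103, adjusted p = 0.309). Among animals 573 to 602 r was 0.846 (n = 8, exact permutation p = 0.0103, adjusted p = 0.0618). Without the 2 libraries farthest from the median Kcnj1 level, A1cf KO 574 and WT 776, r was 0.809 (permutation p = 0.00399, adjusted p = 0.0239). The rho of those 10 libraries was 0.758 (permutation p = 0.0148, adjusted p = 0.0888), so the pooled r passed the threshold without them and the rho did not. The relations within each genotype and within animals 573 to 602 did not pass it after adjustment. WT 776 had the highest level of both genes and A1cf KO 574 and 584 were among the 3 lowest for both.

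Bsnd related less closely to both. Its Pearson's r was 0.453 with Kcnj1 (permutation p = 0.139, adjusted p = 0.322) and 0.431 with Kcnj10 (permutation p = 0.161, adjusted p = 0.322). Spearman's rho was 0.706 with Kcnj1 (permutation p = 0.0128, adjusted p = 0.0384) and 0.608 with Kcnj10 (permutation p = 0.0405, adjusted p = 0.081). Within the WT libraries the rho of Bsnd and Kcnj1 was -0.143, and within the knockouts it was 0.543, neither past the threshold. The pooled rank relation was thus not found within WT. Pearson's r of this pair was -0.48 among the WT and 0.434 among the knockout libraries. Bsnd and Kcnj10 had an r of -0.428 in WT and 0.192 in A1cf KO. Among animals 573 to 602 the r of Bsnd was 0.706 with Kcnj1 and 0.782 with Kcnj10 (n = 8, exact permutation adjusted p = 0.115 and 0.0759). Without the 2 libraries farthest from the median Bsnd level, A1cf KO 780 and WT 777, r was 0.308 and 0.449. The rho with Kcnj1 was then 0.648 (permutation p = 0.0492, adjusted p = 0.111) and did not pass the threshold. With 10 libraries in place of 12, this does not show that the pooled rho rested on those 2.

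Bsnd and Kcnj16 had a pooled r near 0, at -0.11 (permutation p = 0.739, adjusted p = 0.739), and a rho of -0.042 (permutation p = 0.903, adjusted p = 0.903). Within each genotype r was negative, at -0.746 in WT (exact permutation p = 0.0847, adjusted p = 0.256) and -0.752 in the knockouts (exact permutation p = 0.0667, adjusted p = 0.2). These did not pass the threshold, and among animals 573 to 602, which cross genotypes, r was 0.176. Without A1cf KO 780 and WT 777 it was -0.0224. A1cf KO 780 had the lowest Bsnd of all 12 libraries and the second highest Kcnj16, and WT 590 had the second highest Bsnd and the lowest Kcnj16 of the WT libraries.

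Kcnj16 showed no relation past the threshold with either of the other potassium channel genes. Its r was 0.341 with Kcnj1 (permutation p = 0.28, adjusted p = 0.352; rho 0.259, permutation p = 0.418) and 0.332 with Kcnj10, its partner (permutation p = 0.293, adjusted p = 0.352; rho 0.252, permutation p = 0.434). Without the 2 farthest libraries these were -0.0684 and -0.0907, and among animals 573 to 602 they were -0.211 and -0.144. With Kcnj1, r was 0.777 in WT and -0.653 in A1cf KO, and with Kcnj10 it was 0.42 and -0.318, none past the threshold. The rho with Kcnj1 was 0.2 in WT and -0.543 in A1cf KO, and with Kcnj10 it was 0.143 and -0.0857.

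**Figure D4:**
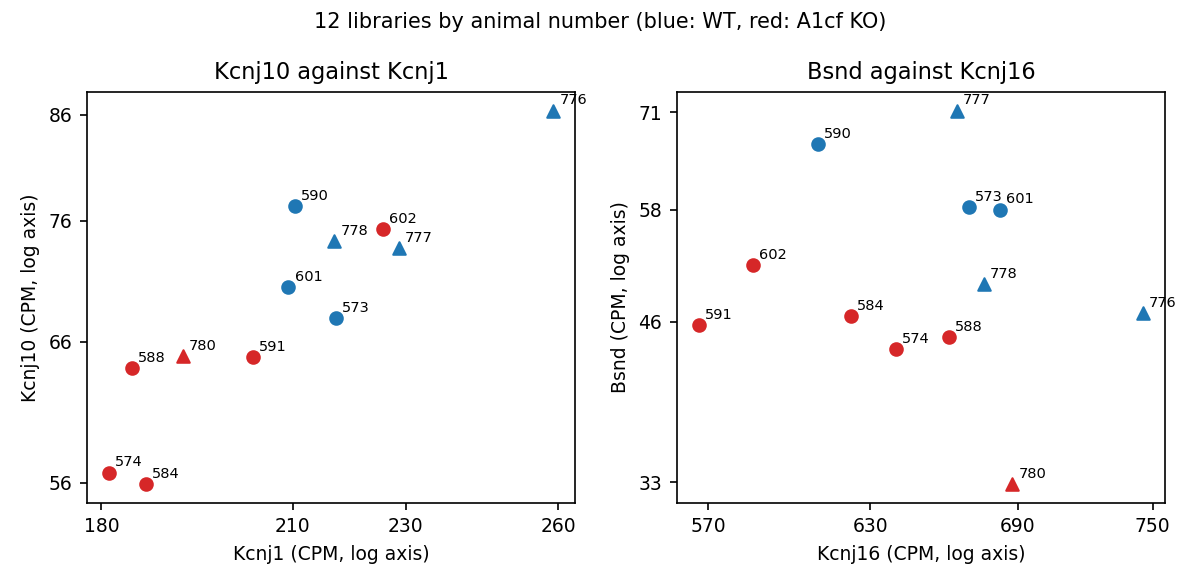
Kcnj10 against Kcnj1 (left) and Bsnd against Kcnj16 (right), CPM on log axes, 1 point per library labelled with its animal number, WT in blue and A1cf KO in red. Kcnj10 and Kcnj1 line up across both genotypes (r = 0.905), and for Bsnd against Kcnj16 the points slope downward within each colour (r = -0.746 and -0.752) and not over both.

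The genes whose log2 CPM over the 12 libraries was most like that of each channel gene were read off as a description, among 12515 tested genes with a mean of at least 1 CPM. These values share libraries, depth and genotype, so no p is given. For Kcnj1 they were Kcnq1 (r = 0.928), the gene of another potassium channel, Wscd2 (0.928), Kcnj10 (0.905), Pbxip1 (0.892) and Scnn1a (0.875), which encodes a subunit of the epithelial sodium channel. For Kcnj10 they were Tom1 (r = 0.929), Scnn1a (0.908), Kcnj1 (0.905), Kcnq1 (0.898) and Spink8 (0.894), so Kcnq1 and Scnn1a stood in both sets. For Bsnd they were H3f3a (r = 0.898), Anapc2 (0.898), Mavs (0.895), Aar2 (0.894) and Cacnb3 (0.893). For Kcnj16 they were Eif2s2 (r = 0.912), Metap2 (0.903), Nono (0.901), Hbp1 (0.892) and Dirc2 (0.881), none of which was in the sets of the other 3 genes. The same held for the set of Bsnd.

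Among 26 other potassium channel genes of the kidney, 19 were tested, 10 with a positive and 9 with a negative fold change (median 0.03), and 0 passed the threshold in edgeR. At an unadjusted p under 0.05, 1 was higher and 3 were lower in A1cf KO, and DESeq2 called 1. The DESeq2 call was Kcnq1, a channel subunit of several epithelia, which had 32.6 ± 4.54 CPM in WT against 25.7 ± 2.06 CPM in the knockouts, a log2 fold change of -0.34 (adjusted p = 0.202 in edgeR and 0.0301 in DESeq2) that was -0.23 among animals 573 to 602. The lowest WT library for Kcnq1 was above the highest A1cf KO library, 30.1 against 29.4 CPM. Of the two-pore potassium channel genes, Kcnk1 had 58.6 ± 6.41 and 48.9 ± 8.00 CPM (edgeR log2 fold change -0.26, adjusted p = 0.417, and -0.18 without A1cf KO 574). Kcnk5 had 147 ± 23.2 and 181 ± 58.3 CPM (log2 fold change 0.30, edgeR adjusted p = 0.597), and its fold change was 0.18 without A1cf KO 574, 0.19 with the range of animal numbers as a covariate and 0.16 among animals 573 to 602. The 7 untested genes were Kcnj11, Kcnj14, Kcnmb2, Kcnmb4, Lrrc26, Kcna1 and Kcnk13.

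Of 16 other chloride channel genes, 15 were tested, 7 positive and 8 negative (median -0.01), with 0 past the threshold in edgeR or DESeq2 and 1 higher and 3 lower at an unadjusted p under 0.05. Ano6, which encodes a calcium-activated scramblase and channel, had 128 ± 9.19 and 111 ± 5.33 CPM (log2 fold change -0.21, edgeR adjusted p = 0.236). Clcn4, of endosomal membranes, had 108 ± 5.66 and 108 ± 6.00 CPM.

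The 22 cotransporters and channel regulators were all tested, 8 positive and 14 negative (median -0.06), with 0 past the threshold in edgeR or DESeq2 and 2 higher and 5 lower at an unadjusted p under 0.05. Besides Slc12a1 and Slc12a3, its most abundant genes included a sodium pump subunit gene, Atp1b1, and the pump regulator Fxyd2. Atp1b1 had a log2 fold change of -0.01 and Fxyd2 of -0.08, each with an edgeR adjusted p above 0.8. The value of Fxyd2 ran from -0.13 (without A1cf KO 602) to -0.027 (without WT 590) with 1 library left out, and was -0.16 with the range of animal numbers as a covariate and among animals 573 to 602.

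Of the 16 transcription factors of the distal nephron, 5 were positive and 11 negative (median -0.10), with 0 past the threshold in edgeR and 1 by DESeq2. At an unadjusted p under 0.05, 1 was higher and 4 were lower. The DESeq2 call was Irx3, a factor of nephron segment patterning, with 25.2 ± 3.46 CPM in WT against 32.7 ± 3.35 CPM in the knockouts (log2 fold change 0.37, adjusted p = 0.205 in edgeR and 0.0285 in DESeq2). Tfcp2l1, a factor of the distal nephron and collecting duct, had 633 ± 44.0 and 561 ± 18.4 CPM (log2 fold change -0.18, edgeR adjusted p = 0.331, and -0.082 among animals 573 to 602). Foxi1, a factor of intercalated cells, had a log2 fold change of -0.04 that was 0.15 without WT 590. The list holds 2 members of each family that binds the motifs searched above, named here after their values were seen. Esrrb and Esrrg had log2 fold changes of -0.59 and 0.11 (edgeR adjusted p = 0.375 and 0.786), and Tfap2b and Tfap2a of -0.21 and 0.0029 (edgeR adjusted p = 0.407 and 0.995).

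**Figure D5:**
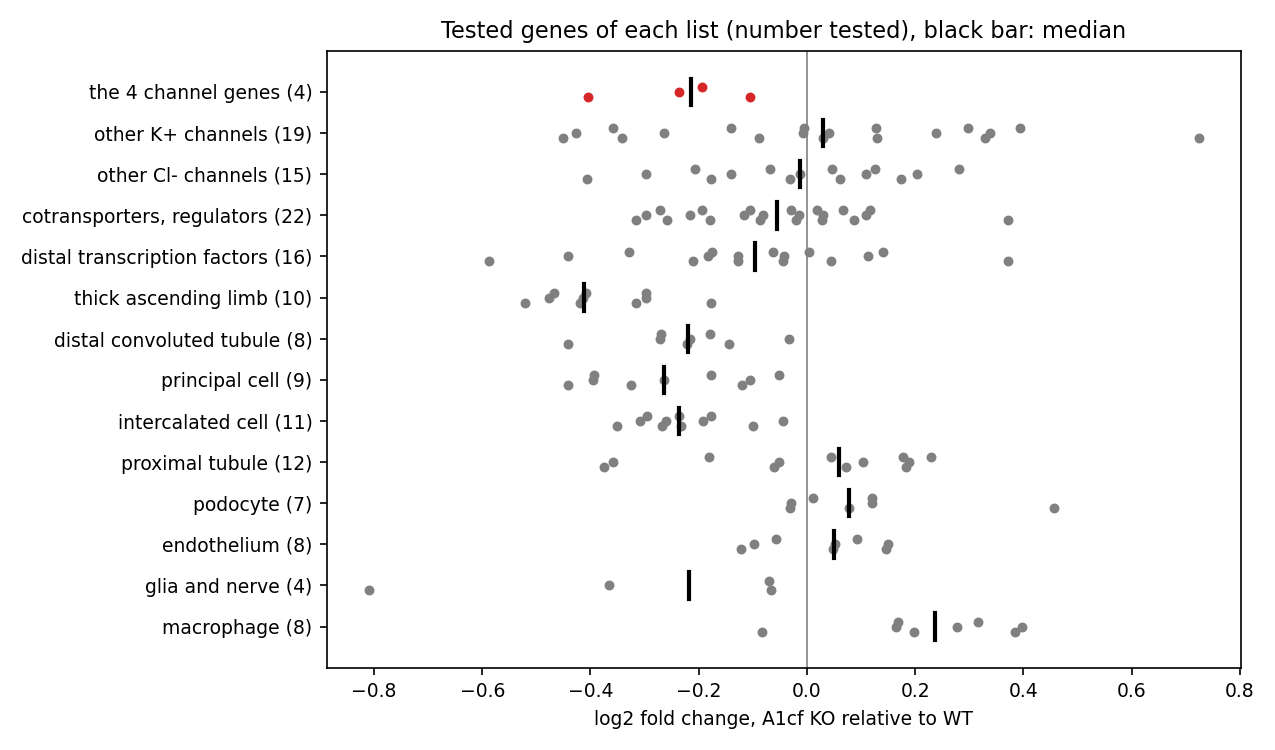
Log2 fold change (A1cf KO relative to WT, horizontal axis) of every tested gene of each list, 1 point per gene, with a black bar at the median and the number tested in brackets. The 4 channel genes (red) lie between -0.40 and -0.10, the medians of the 4 distal nephron marker lists between -0.41 and -0.22, and those of the other potassium and chloride channels at 0.03 and -0.01.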

How the data were processed

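RNA from whole kidneys was sequenced in 12 libraries, 6 per genotype. The deposited values are raw read counts per gene name, which the authors made with featureCounts 1.5.0-p2 over exons of GENCODE M8, from trimmed, merged and duplicate-marked alignments, per the file headers; the header's command sets no strand, pair or duplicate option. STAR, DESeq2 and mm10 are named in the submitters' processing notes, with versions not given in the sources used here.

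Counts were filtered by filterByExpr (16910 genes), TMM-scaled and tested with edgeR 4.0.16 (quasi-likelihood, R 4.3.3, no covariate), with Benjamini-Hochberg adjustment over all genes and a threshold of 0.05. Log2 CPM used a prior count of 2. SE is the fold change over the root of F. Ratios used exact permutation tests, and relations over 10 or 12 libraries 100000 permutations. The edgeR, DESeq2 and limma-voom tests of genotype were run on simulated data first, and the permutation tests were not. Alternatives included DESeq2 1.42.0, limma-voom (limma 3.58.1), other scalings and filters, a covariate for the range of animal numbers, and leaving out each library.

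The genes and lists were chosen with earlier results of these data known. Named genes are the most abundant per kilobase of each list (4, or 2 for marker lists), any past the threshold, and the 5 most like each channel gene; some of the genes so chosen are not reported here. Of the deposited count columns, all 12 were used. P-values measure the spread between these libraries.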

Additional observations from a re-analysis of the deposited data

Results flagged for a closer look

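In groups of 6 libraries, a library was singled out where its gap to the nearest other library exceeded Dixon's critical share of the group's range. Of 50 groups tested 4 were, and chance gives about 1 in 20.

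Among the potassium channel genes, Kcnk1 was lowest in A1cf KO 574 at 33.65 CPM, with the other A1cf KO libraries at 48.24 to 55.43 CPM. Kcnq1 was highest in WT 776 at 41.77 CPM, with the other WT libraries at 30.06 to 32.26 CPM. Of the transcription factor genes, Foxi1 was highest in WT 590 at 55.81 CPM, against 23.1 to 35.17 CPM. The log2 ratio of Bsnd to Kcnj1 was lowest in A1cf KO 780 at -2.303, with the other A1cf KO libraries at -1.908 to -1.757. WT 777 was not among the libraries singled out. It had the highest thick ascending limb marker sum, 7151 CPM, to which the rule was not applied, and the highest Slc12a1 of the WT libraries, 1466 CPM.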

How the results depend on the processing

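The fold changes of Bsnd, Kcnj1, Kcnj10 and Kcnj16 kept their direction and stayed short of the threshold under all 22 alternatives, with ranges of -0.49 to -0.33, -0.24 to -0.12, -0.29 to -0.18 and -0.13 to -0.067. Over all genes, 170 passed by DESeq2 and 24 with the range of animal numbers as a covariate, against 8, and DESeq2 called 1 gene in the potassium channel list (Kcnq1, adjusted p = 0.0301, log2 fold change -0.34), 1 in the transcription factor list (Irx3, 0.0285, 0.37) and Umod (-0.47). The cause was not tested.

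Values near 0 changed sign: Foxi1 by limma-voom (0.00022), and Kcnj1 to Slc12a1 (-0.025) and Kcnj10 to Slc12a3 (0.056) in animals 573 to 602. The relations of Kcnj16 with Kcnj1 (r = 0.341) and Kcnj10 (r = 0.332) also changed sign, to -0.0684 and -0.0907, without the 2 farthest libraries. With 1 library left out the ranges were -0.039 to 0.0083 for Clcn4 (positive without WT 777, A1cf KO 584 or 591), -0.033 to 0.011 for Atp1b1 (A1cf KO 574 or 584) and -0.16 to 0.15 for Foxi1 (WT 590). For ratios they were -0.18 to 0.0026 for Bsnd to Slc12a1 (WT 590), -0.018 to 0.15 for Kcnj1 to Slc12a1 (WT 777) and -0.088 to 0.042 for Kcnj10 to Slc12a3 (WT 777 or A1cf KO 584).

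No paired analysis was made, because the sources used here give no litter or other pairing of the animals. Each of the 4 genes had at least 971 reads per library, and the part of sequencing depth in their differences was not tested.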
